A study of Arabidopsis thaliana with 24 samples.

Results

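In Arabidopsis seedlings sprayed with hydrogen peroxide (H2O2), 13 of 18205 genes tested differed between a bzip68 mutant and the wild type (wt), and this comparison is described here across all genes. It rests on 6 of the 24 samples of the series: 3 libraries of H2O2-sprayed bzip68 and 3 of H2O2-sprayed wt, chosen by the genotype and treatment in their labels. Both groups were whole seedlings, 14 days old, grown on MS medium with sucrose in 125 µmol of white light per square metre per second and then sprayed with 5 mM H2O2 in 0.01% Triton X-100. The 3 wt and 3 bzip68 mock libraries, from plants of the same age and light sprayed with the detergent in water, are used to see whether a genotype difference was also present without peroxide. The labels name the genotypes only as wt and bzip68. They give no allele, no number of independent lines and no time from spraying to harvest. They also do not state that the 3 samples of a group were grown separately, and p-values therefore cover just the spread among these samples, which could be technical.

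bZIP68 belongs to group G of the basic leucine zipper (bZIP) transcription factors, whose members bind DNA as dimers at sequences with an ACGT core, above all the G-box CACGTG. The basic region contacts the DNA and the leucine zipper holds the dimer together. Some group G members carry conserved cysteines whose oxidation lowers DNA binding in vitro, so the family has been studied as a link between redox state and transcription. H2O2 is a by-product of photosynthesis and respiration and also a signal, produced at the cell surface in immune responses and removed by catalases and peroxidases.

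The mutated gene was nearly silent in the mutant. BZIP68 (AT1G32150, chr1:11565494-11568645) had 8.56, 8.75 and 7.10 CPM (counts scaled to a common library size) in the wt libraries and 0.218, 0 and 0.214 CPM in the bzip68 libraries. All mutant libraries thus lay far below all wt libraries. Over the groups 4 counts stood against 250, a 56.5-fold difference whose 95% exact binomial interval of 21.8 to 209 covers counting error only. The log2 fold change was -5.70 ± 0.38 (standard error, n = 3 per group; edgeR adjusted p = 4.39e-07). The 4 other group G factors were tested too, and 0 passed. GBF2 had 12.5, 16.8 and 16.0 CPM in wt and 21.1, 18.9 and 19.9 CPM in bzip68, without overlap, a log2 fold change of 0.40 ± 0.16 (edgeR adjusted p = 0.453). The nearest relative BZIP16 had a log2 fold change of -0.11 ± 0.13 (unadjusted p = 0.425).

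The libraries held 10194179 to 10262992 counts in wt and 8997073 to 9322782 in bzip68. One stood apart: wt replicate 2 had 0.0121% of its counts in chloroplast-encoded genes, against 1.1% to 1.54% in the other 5, and lay at 51.5 on the first principal component (41.6% of the variance), where the others lay between -32.0 and 6.98. The 69 chloroplast-encoded genes, positive in 67 with a median of 0.85, moved with that library, and without it the median was 0.27. Photosynthesis genes and root markers such as those of the Casparian strip were both present, as in whole seedlings. Root markers summed to 142 to 176 CPM in wt and 143 to 155 CPM in bzip68 (12 of 14 tested, median -0.12), and guard cell markers to 2276 to 2558 and 2025 to 2329 CPM (7 of 8 tested). Vasculature markers summed to 263 to 325 and 235 to 287 CPM (7 of 8 tested), and root hair markers to 22.2 to 37.1 and 22.3 to 35.7 CPM (5 of 8 tested). Trichome markers, at 93.8 to 103 CPM in wt and 104 to 115 CPM in bzip68, did not overlap (6 of 7 tested, 6 positive, median 0.46), with GL2 at 0.53 log2 (unadjusted p = 0.0047). The trichome median was 0.08 without bzip68 replicate 1 and 0.05 with only the 6 H2O2 libraries in the fit. Of the seed storage genes 1 of 10 was tested, and of the pollen and meiosis markers (3 of 10 tested) HEI10 passed. In whole seedlings fewer cells of a type and less RNA per cell cannot be told apart, and the part of cell composition in the list values was not tested.

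Of the 13 genes that differed, 5 were higher and 8 lower in bzip68 (edgeR quasi-likelihood test, Benjamini-Hochberg adjusted p under 0.05). They are 0.0714% of the genes tested, 0.0275% higher and 0.0439% lower. Without adjustment 1681 genes (9.23%) had p under 0.05, 877 higher (4.82%) and 804 lower (4.42%). In 3035 genes (16.7%) the 3 libraries of one genotype did not overlap those of the other. Over all genes the median log2 fold change was 0.002 and the 5th and 95th percentiles were -0.41 and 0.50. Without wt replicate 2 the count was 16, with 10 of the 13 and without RPL23AB, AT3G13230 and AT4G16870. Of the 13 genes, 9 also differed in mock plants by edgeR, each in the same direction, and 4 did not pass there: SEN1, FRK1, RPL23AB and AT3G13230. The mock comparison includes mock bzip68 replicate 2, which also stood apart (limma voom weight 0.354). The number of mock calls varied with the treatment of libraries and the tool. It was 39 by edgeR, 73 without this library and H2O2 wt replicate 2, and 843 by limma voom with library weights.

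**Figure D1:**
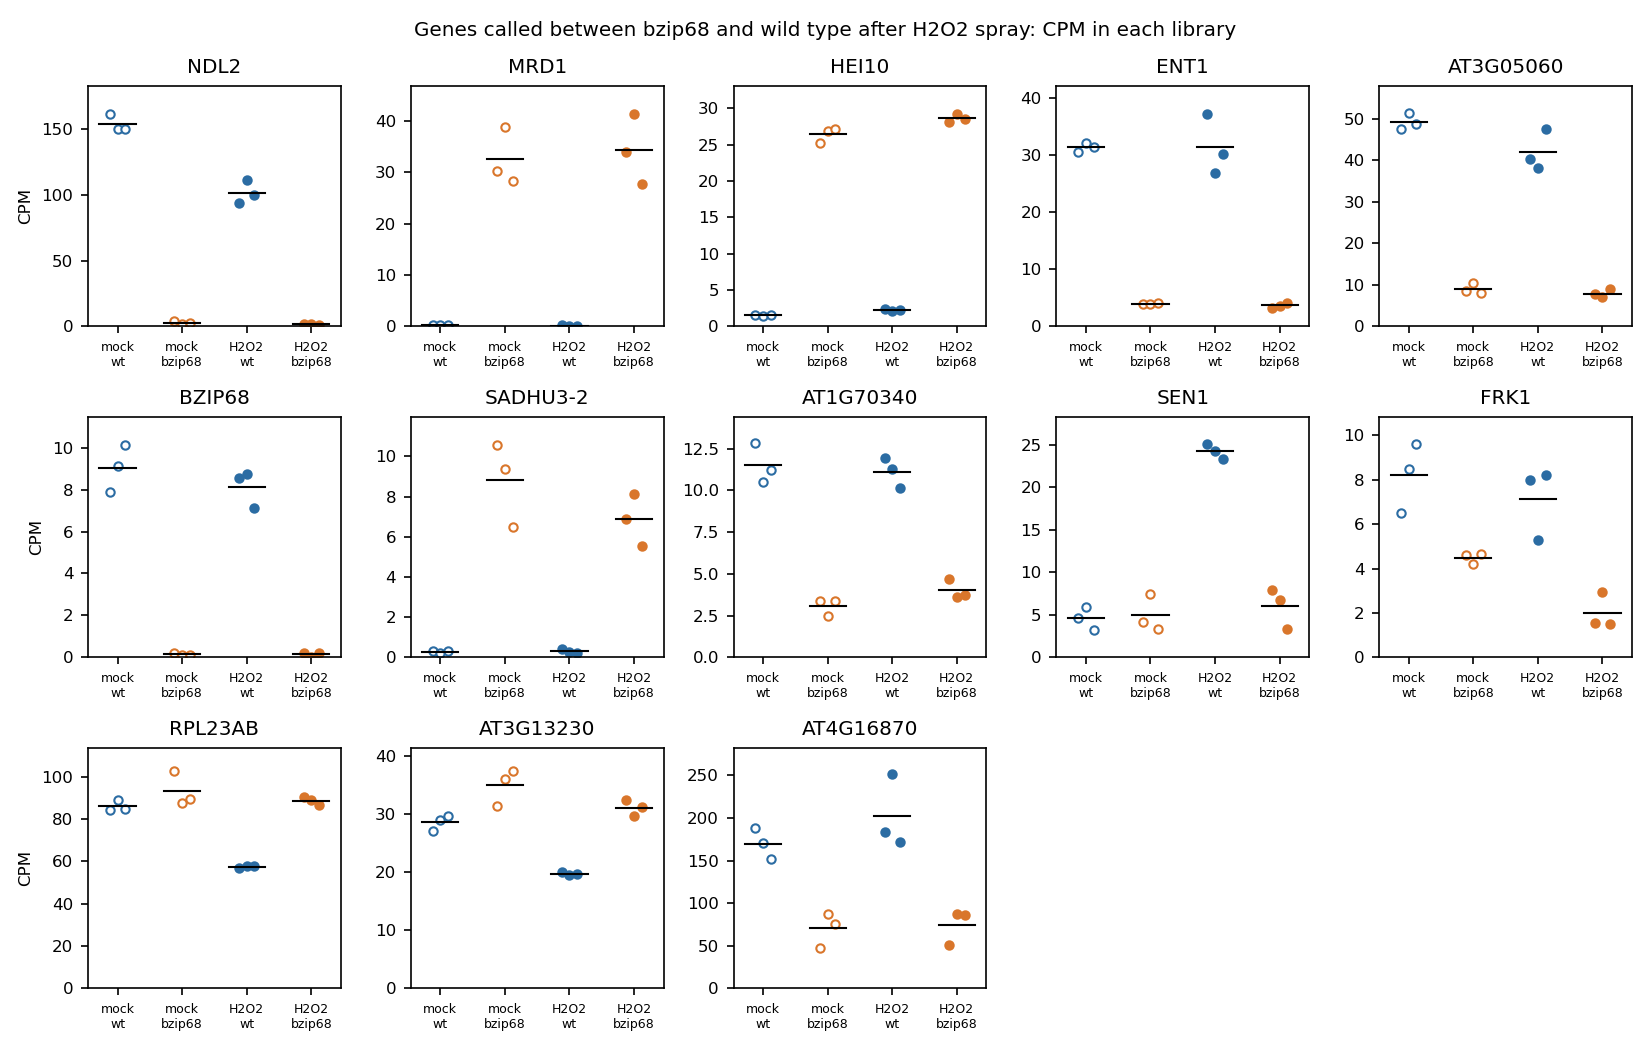
Level of each of the 13 genes in CPM (vertical axes, each from 0) in every mock library (open circles) and every H2O2 library (filled circles) of wt (blue) and bzip68 (orange), with the group mean as a line. In all 13 the filled orange and filled blue circles do not overlap, and in SEN1 the 3 filled blue circles, at 23.3 to 25.1 CPM, stand alone above the other groups.

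The regions just upstream of 5 of these genes and of GBF2 are shown because a group G factor would be sought there by its ACGT core. The letters are from RefSeq on TAIR10.1, written 5′ to 3′ in the direction of the gene, and end at the base before the annotated start; SEN1 and RPL23AB are shorter because a neighbouring gene begins there. Capitals mark ACGT, or CACGTG where the core is part of it.
BZIP68, chr1:11565244-11565493, plus strand: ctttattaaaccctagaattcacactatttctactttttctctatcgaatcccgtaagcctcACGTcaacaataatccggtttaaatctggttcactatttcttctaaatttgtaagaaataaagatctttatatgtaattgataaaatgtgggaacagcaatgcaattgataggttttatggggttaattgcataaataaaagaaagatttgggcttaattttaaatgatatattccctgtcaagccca
NDL2, chr5:3799158-3799407, plus strand: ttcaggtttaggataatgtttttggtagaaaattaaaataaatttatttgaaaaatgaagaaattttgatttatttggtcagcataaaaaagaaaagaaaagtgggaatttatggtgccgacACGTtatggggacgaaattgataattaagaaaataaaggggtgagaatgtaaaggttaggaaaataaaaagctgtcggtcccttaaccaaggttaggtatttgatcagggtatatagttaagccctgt
SEN1, chr4:16944678-16944877, plus strand: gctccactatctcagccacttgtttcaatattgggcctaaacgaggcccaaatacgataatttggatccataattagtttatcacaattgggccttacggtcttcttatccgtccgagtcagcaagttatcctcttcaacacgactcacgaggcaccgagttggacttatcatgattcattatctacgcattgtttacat
FRK1, chr2:8329945-8330194, minus strand: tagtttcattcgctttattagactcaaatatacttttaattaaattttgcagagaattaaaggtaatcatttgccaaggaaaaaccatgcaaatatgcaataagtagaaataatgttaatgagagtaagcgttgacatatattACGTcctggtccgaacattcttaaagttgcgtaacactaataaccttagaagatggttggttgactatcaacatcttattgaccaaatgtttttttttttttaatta
RPL23AB, chr3:20500020-20500233, plus strand: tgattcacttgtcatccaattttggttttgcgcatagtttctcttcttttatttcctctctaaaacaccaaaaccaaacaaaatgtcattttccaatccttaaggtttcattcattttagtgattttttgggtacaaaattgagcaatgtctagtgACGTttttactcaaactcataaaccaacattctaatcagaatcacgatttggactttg
GBF2, chr4:484525-484774, minus strand: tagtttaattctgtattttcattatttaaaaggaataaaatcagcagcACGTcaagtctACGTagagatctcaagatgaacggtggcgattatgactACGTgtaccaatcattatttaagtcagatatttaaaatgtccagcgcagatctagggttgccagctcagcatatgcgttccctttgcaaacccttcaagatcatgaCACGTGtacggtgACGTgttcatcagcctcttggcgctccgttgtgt
The BZIP68 and NDL2 windows each hold 1 ACGT, starting 188 and 128 bases before the gene, FRK1 holds 1 at 107 and RPL23AB 1 at 58. The 200 bases before SEN1 hold none, while GBF2 has 5, of which the one at 46 lies within a CACGTG. In windows from 250 bases before to 50 bases after the start, searched on both strands, CACGTG occurred in 0 of the 13 genes against 1592 of 18055 promoters with sequence (8.82%). ACGT, which every CACGTG contains, occurred in 7 of the 13 (53.8%), against 50.7% of all promoters. The absence of these letters from a window says nothing of the factor itself.

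Chromatin immunoprecipitation of bZIP68-FLAG, from 8-day seedlings with no treatment in their labels and GFP-FLAG seedlings as the control, was deposited as peak lists with the authors' own gene assignments. In the authors' deposited table, 2 of the 13 genes (15.4%) had a peak in the larger list, against 4129 of 18205 genes tested (22.7%). One was BZIP68 itself, at chr1:11565955-11567202, 437 bases inside the gene with a score of 522.39 in the authors' deposited table. The other was NDL2, at chr5:3798570-3799201, 349 bases before the start with a score of 114.71 in the authors' deposited table. These distances are the authors' own, from gene starts that differ from the RefSeq starts printed here, and the NDL2 peak reaches into the upstream window shown. Only the BZIP68 peak was also in the authors' shorter, stricter list. The bZIP68-FLAG plants, unlike the GFP-FLAG control, carry a tagged form of this gene. Whether that adds to the BZIP68 peak was not tested. Among genes with an unadjusted p under 0.05, 22.2% of those higher and 29.5% of those lower in bzip68 had a peak in the authors' deposited table. The FLAG plants differ from the RNA plants in age and treatment.

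NDL2 fell the most of the 8 genes called lower. NDL2 (AT5G11790, chr5:3799408-3803216) encodes an N-MYC downregulated-like protein, of a family that interacts with the heterotrimeric G protein beta subunit and acts in auxin transport. It was at 93.6, 111 and 99.96 CPM in wt and at 1.85, 2.07 and 1.18 CPM in bzip68. All bzip68 libraries lay far below all wt libraries. Its log2 fold change was -5.89 ± 0.22 (edgeR adjusted p = 2.94e-10) and -5.80 in mock plants. The paralogs NDL1 and NDL3, at -0.09 ± 0.16 and 0.04 ± 0.21 log2, did not pass.

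MRD1 and HEI10 are overlapping genes on opposite strands of chromosome 1 and were both higher in bzip68. MRD1 (chr1:19963047-19964712), named after its response in the methionine-accumulating mto1 mutant, was at 0.197, 0.094 and 0.102 CPM in wt and at 34.0, 41.3 and 27.8 CPM in bzip68. That is 4 counts against 952, a 263-fold difference with a 95% exact binomial interval of 102 to 968 for counting error. HEI10 (chr1:19963267-19966952), a RING-type ligase that promotes meiotic crossovers, was at 2.36, 2.07 and 2.23 CPM in wt and at 28.1, 29.3 and 28.5 CPM in bzip68, a log2 fold change of 3.68 ± 0.14. Neither pair of groups overlapped. MRD1 was at 6.79 log2 in mock plants and 7.90 in H2O2 plants, a difference of 1.12 ± 0.70 (edgeR adjusted p = 0.786). The genes share 1446 bases, and whether strand was used in counting is not given in the sources used here, so their values are uncertain. DMC1, a meiotic recombinase, had a log2 fold change of -0.31 and did not pass.

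ENT1 and AT1G70340 form a second overlapping pair on chromosome 1, and both were lower. ENT1 (chr1:26502909-26504619), an equilibrative nucleoside transporter, was at 37.3, 26.8 and 30.1 CPM in wt and at 3.27, 3.59 and 4.17 CPM in bzip68, a log2 fold change of -3.09 ± 0.16 (edgeR adjusted p = 1.59e-08). AT1G70340 (chr1:26503961-26506672), annotated as a dicer-like protein, was at 11.9, 11.3 and 10.2 CPM in wt and at 4.69, 3.59 and 3.74 CPM in bzip68, a log2 fold change of -1.47 ± 0.18 (edgeR adjusted p = 0.00128). In both genes every bzip68 library was below every wt library. They share 659 bases, with the same uncertainty. ENT3, one of 3 transporters of this family tested, was at 0.40 ± 0.20 log2 and did not pass.

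AT3G05060, annotated as a NOP56-like protein of pre-rRNA processing, fell in bzip68. It was at 40.3, 38.1 and 47.4 CPM in wt and at 7.85, 6.96 and 8.87 CPM in bzip68, with no overlap and a log2 fold change of -2.41 ± 0.14 (edgeR adjusted p = 1.01e-07). It has a close paralog, so its counts are uncertain. SADHU3-2, a retroposon of the Sadhu family, was at 0.394, 0.282 and 0.203 CPM in wt and at 6.87, 8.16 and 5.56 CPM in bzip68. It rose from near the detection limit, with a 23.3-fold ratio of counts (95% exact binomial interval 12 to 51.8, counting error) and a log2 fold change of 4.49 ± 0.34. AT4G16870, annotated as an uncharacterized protein and 68 bases from the resistance gene RPP4, was at 184, 251 and 172 CPM in wt and at 51.2, 86.8 and 86.5 CPM in bzip68. Its log2 fold change of -1.44 ± 0.24 (edgeR adjusted p = 0.0419) lost its call when any 1 of the 6 libraries was left out, with values from -1.56 to -1.22.

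Among the 3 nearest genes on each side of the 13, MRD1 and HEI10 are neighbours of each other, as are ENT1 and AT1G70340, and these passed. The 64 other tested neighbours lie outside the 13, so by edgeR 0 of them could pass. Of these 64, 2 had an unadjusted p under 0.05 (9.23% of all genes). The largest change among them was 0.72 log2 in size, for AT3G05080.

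SEN1 is where the H2O2 and mock comparisons were furthest apart among the 13. SEN1 (AT4G35770, chr4:16944878-16946266) encodes a rhodanese-domain protein induced by darkness, starvation and senescence. After H2O2 it was at 25.1, 24.3 and 23.3 CPM in wt and at 7.96, 6.74 and 3.31 CPM in bzip68. The wt libraries were closely alike and lay well above all mutant libraries. After mock spray it was at 4.59, 5.91 and 3.27 CPM in wt and at 4.103, 7.49 and 3.36 CPM in bzip68, where the groups overlapped fully. The genotype difference was -2.01 ± 0.29 log2 after H2O2 (edgeR adjusted p = 0.0122) and 0.12 ± 0.33 after mock (edgeR adjusted p = 0.958). Set against mock of the same genotype, SEN1, one of the 9.74% of genes called between H2O2 and mock in wt, rose by 2.404 ± 0.30 log2 in wt (edgeR adjusted p = 1.05e-04), and in bzip68 its log2 fold change was 0.28 ± 0.33 (edgeR adjusted p = 0.727). The test of the difference between the genotype effects gave -2.13 ± 0.44 log2 with an unadjusted p of 0.00026, which did not pass over all genes by edgeR (adjusted p = 0.588) and passed by DESeq2 (-2.14 log2, adjusted p = 0.00682). SEN1 lost its call without wt replicate 1, wt replicate 3 or bzip68 replicate 2, at -2.27 to -1.72 log2 over the 6 fits.

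FRK1, a receptor-like kinase induced by the bacterial peptide flg22 and used as a marker of early immune signalling, fell in bzip68. FRK1 (AT2G19190, chr2:8326049-8329944) was at 7.97, 5.27 and 8.22 CPM in wt and at 1.53, 2.94 and 1.496 CPM in bzip68, without overlap. Its log2 fold change was -1.84 ± 0.28 (edgeR adjusted p = 0.0122), against -0.87 ± 0.25 in mock plants (edgeR adjusted p = 0.205). From mock to H2O2 it fell, as 1 of the 7.39% of genes called between the sprays in bzip68, by 1.18 ± 0.29 log2 in bzip68 (edgeR adjusted p = 0.0209), beside a value of -0.20 in wt (edgeR adjusted p = 0.698). The difference between the genotype effects was -0.97 ± 0.37 log2 (unadjusted p = 0.0196, edgeR adjusted p = 0.726). FRK1 lost its call without wt replicate 1 or 3 or bzip68 replicate 1 or 3, at -2.23 to -1.67 log2 over the 6 fits.

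RPL23AB and AT3G13230 rose by less than 1 log2 unit between tightly grouped libraries. RPL23AB (AT3G55280, chr3:20500234-20501738), a protein of the large ribosomal subunit, was at 57.0, 57.8 and 57.9 CPM in wt and at 90.5, 88.8 and 86.5 CPM in bzip68. The gap between the groups was many times the spread within them, and the log2 fold change was 0.62 ± 0.11 (edgeR adjusted p = 0.0395). In mock plants both genotypes were near the higher level, with means of 86.0 CPM in wt and 93.2 CPM in bzip68. From mock to H2O2 RPL23AB fell by 0.58 ± 0.11 log2 in wt (edgeR adjusted p = 0.00197), while bzip68 gave -0.07 (edgeR adjusted p = 0.784). AT3G13230 (chr3:4269943-4271375), an RNA-binding protein with a KH domain, was at 20.1, 19.5 and 19.7 CPM in wt and at 32.5, 29.8 and 31.2 CPM in bzip68, a log2 fold change of 0.66 ± 0.11 (edgeR adjusted p = 0.0395). It too fell from mock to H2O2 in wt, by 0.54 log2 (edgeR adjusted p = 0.00541), with -0.17 in bzip68 (edgeR adjusted p = 0.455). The differences between genotype effects were 0.51 ± 0.15 and 0.37 ± 0.16 log2, with unadjusted p of 0.00378 and 0.0324 (edgeR adjusted p = 0.668 and 0.745). Both genes lost their call when any 1 library was left out, at 0.61 to 0.64 and 0.63 to 0.69 log2, and RPL23AB shares sequence with its paralog. The genotype comparisons in H2O2 and the responses to H2O2 use the same H2O2 libraries, so their values are not independent.

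**Figure D2:**
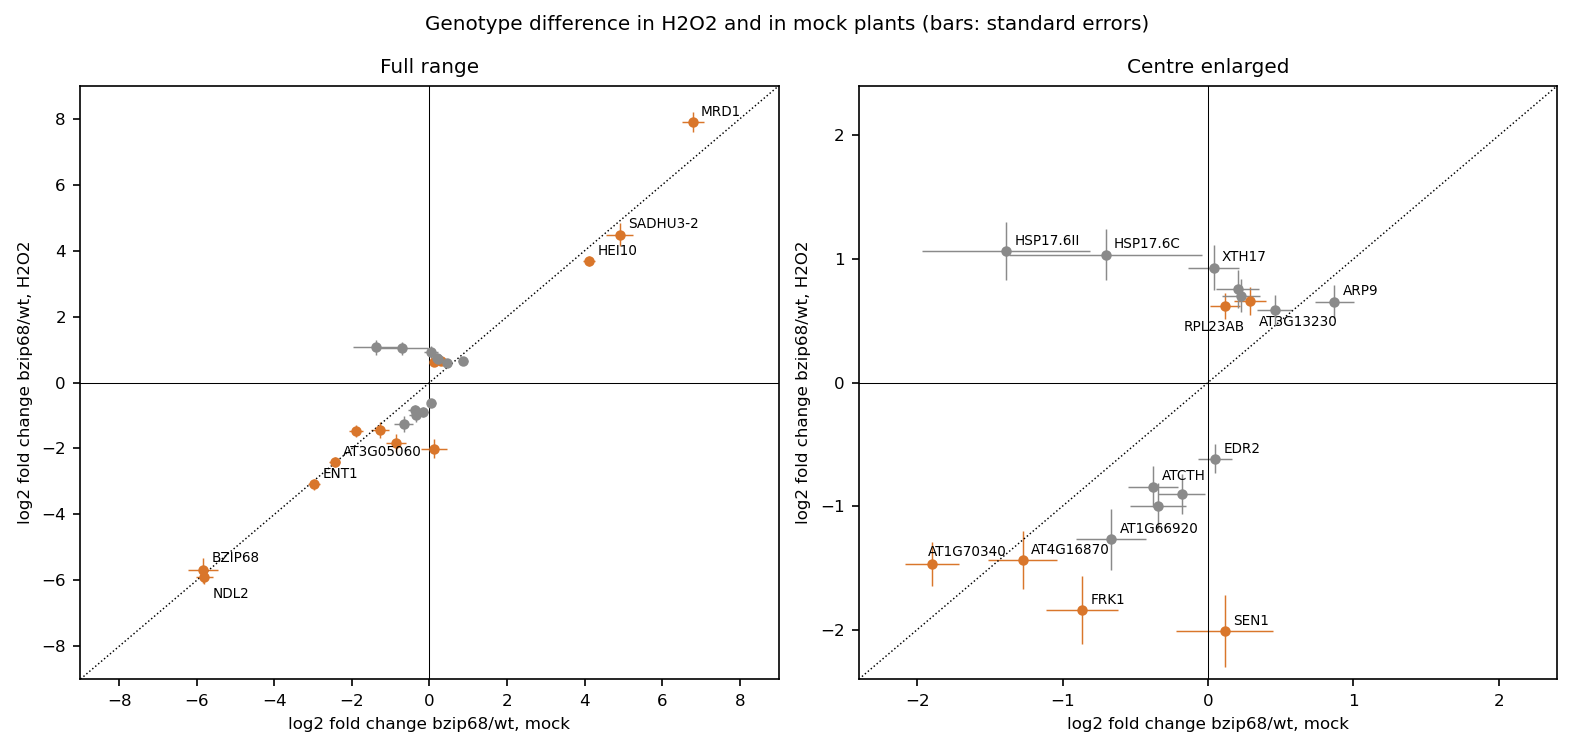
Log2 fold change of bzip68 over wt in H2O2 plants (vertical) against mock plants (horizontal) with standard errors, for the 13 genes (orange) and the further genes called by both other tools (grey), over the full range on the left and enlarged on the right; the dotted line marks equal values. NDL2, BZIP68 and ENT1 lie near the line, MRD1 lies above it at 6.79 in mock and 7.90 in H2O2, and SEN1 lies at 0.12 in mock and -2.01 in H2O2.

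Over all genes the difference between the genotype effects in H2O2 and in mock passed for 0 genes by edgeR. The unadjusted p was under 0.05 for 1178 genes (6.47%), limma voom called 0 and DESeq2 24. Of the 39 genes that differed in mock plants (0.214%), 34 had the same sign in H2O2 plants and 25 of them also had an unadjusted p under 0.05 there. The 24 of DESeq2 included SEN1, BGAL4, HSP17.6II and HSP23.5. They also included HRE2, AOX1A, UPOX and WRKY25 of the oxidative stress list. Whether a genotype difference differs between the sprays thus depended on the tool for these genes.

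Genes of the translation machinery had small positive differences in bzip68. Ribosomal proteins and rRNA together make up the ribosome. Genes annotated as proteins of the cytosolic ribosome had positive log2 fold changes in 168 of 176 tested, against 50.4% of all genes. Their median was 0.30, with a range from -0.31 to 1.13. The annotation was not checked gene by gene, so the 176 may include proteins of organelle ribosomes. By edgeR RPL23AB was the 1 that passed over all genes, and DESeq2 called 3 and limma voom 2. Without adjustment 53 had p under 0.05 and higher values and 0 lower ones (4.82% and 4.42% of all genes). In 62 all bzip68 libraries lay above all wt libraries, against 8.49% of all genes. Their summed level was 16900 to 20240 CPM in the wt libraries and 20710 to 23670 CPM in the bzip68 libraries, so the sums did not overlap. In mock plants the median was 0.13, with 133 of 176 positive. From mock to H2O2 the median was -0.25 log2 in wt and -0.06 in bzip68. Many ribosomal proteins are encoded by near-identical paralogs, so counts can be split between copies.

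Nucleolar factors that assemble ribosomes, as far as they could be matched by name, lay on the same side. Of 34 names listed, 22 could be matched to a gene, and these 22 were all positive, with a median of 0.34 and 17 at an unadjusted p under 0.05 and higher (4.82% of all genes). The names listed included NOP56, but AT3G05060, the NOP56-like gene that fell, was not among the matched genes. The shared direction therefore holds for the 22 matched genes and not for all factors of this kind. Over all genes edgeR called 0, limma voom 0 and DESeq2 2, FIB2 and CBF5. FIB2, a fibrillarin that methylates rRNA, was at 38.5, 37.2 and 44.4 CPM in wt and at 61.1, 64.3 and 54.3 CPM in bzip68, a log2 fold change of 0.58 ± 0.12 (edgeR adjusted p = 0.145). SWA1, a nucleolar WD40 protein needed for 18S rRNA maturation, had a log2 fold change of 0.54 ± 0.13 (edgeR adjusted p = 0.186). CBF5, the pseudouridine synthase of box H/ACA particles, was at 0.52 ± 0.13 (edgeR adjusted p = 0.206). In FIB2, SWA1 and CBF5 the groups did not overlap. The median of the 22 was 0.10 in mock plants. Leaving out wt replicate 2, which stood apart, the ribosomal proteins were positive in 162 of 176 (median 0.24, 0 passing by edgeR, 30 with an unadjusted p under 0.05) and the nucleolar factors in 22 of 22 (median 0.36, 12 with an unadjusted p under 0.05).

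Heat shock proteins and their transcription factors, chaperones induced when proteins unfold, mostly had positive log2 fold changes in bzip68 after H2O2. Of 25 tested, 23 were positive, with a median of 0.55. DESeq2 called 3, limma voom 2 and edgeR 0, while 12 had an unadjusted p under 0.05 and were higher (4.82% of all genes), and in 10 all bzip68 libraries lay above all wt libraries (8.49% of all genes). Without bzip68 replicate 3 the median was 0.34. HSP17.6C, a small cytosolic chaperone, was at 12.4, 16.2 and 14.7 CPM in wt and at 24.98, 27.4 and 36.5 CPM in bzip68. All mutant libraries were above all wt libraries, and the log2 fold change was 1.04 ± 0.20 (edgeR adjusted p = 0.109). HSP17.6II, of the second cytosolic class, was at 14.9, 21.9 and 15.5 CPM in wt and at 29.5, 36.4 and 43.7 CPM in bzip68, at 1.07 ± 0.24 log2 (edgeR adjusted p = 0.173). In mock plants the median of the list was -0.33, and HSP17.6II was at -1.39 log2 from at most 2.24 CPM. The difference of its genotype effects had an unadjusted p of 0.0013 (edgeR adjusted p = 0.588, DESeq2 adjusted p = 0.0362). DESeq2 also called that of HSP23.5, a small heat shock protein of mitochondria (2.14 log2, adjusted p = 0.00676). From mock to H2O2 the median of the list was 2.01 log2 in wt and 2.58 in bzip68. Small heat shock genes are similar in sequence, which leaves their single values uncertain.

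**Figure D3:**
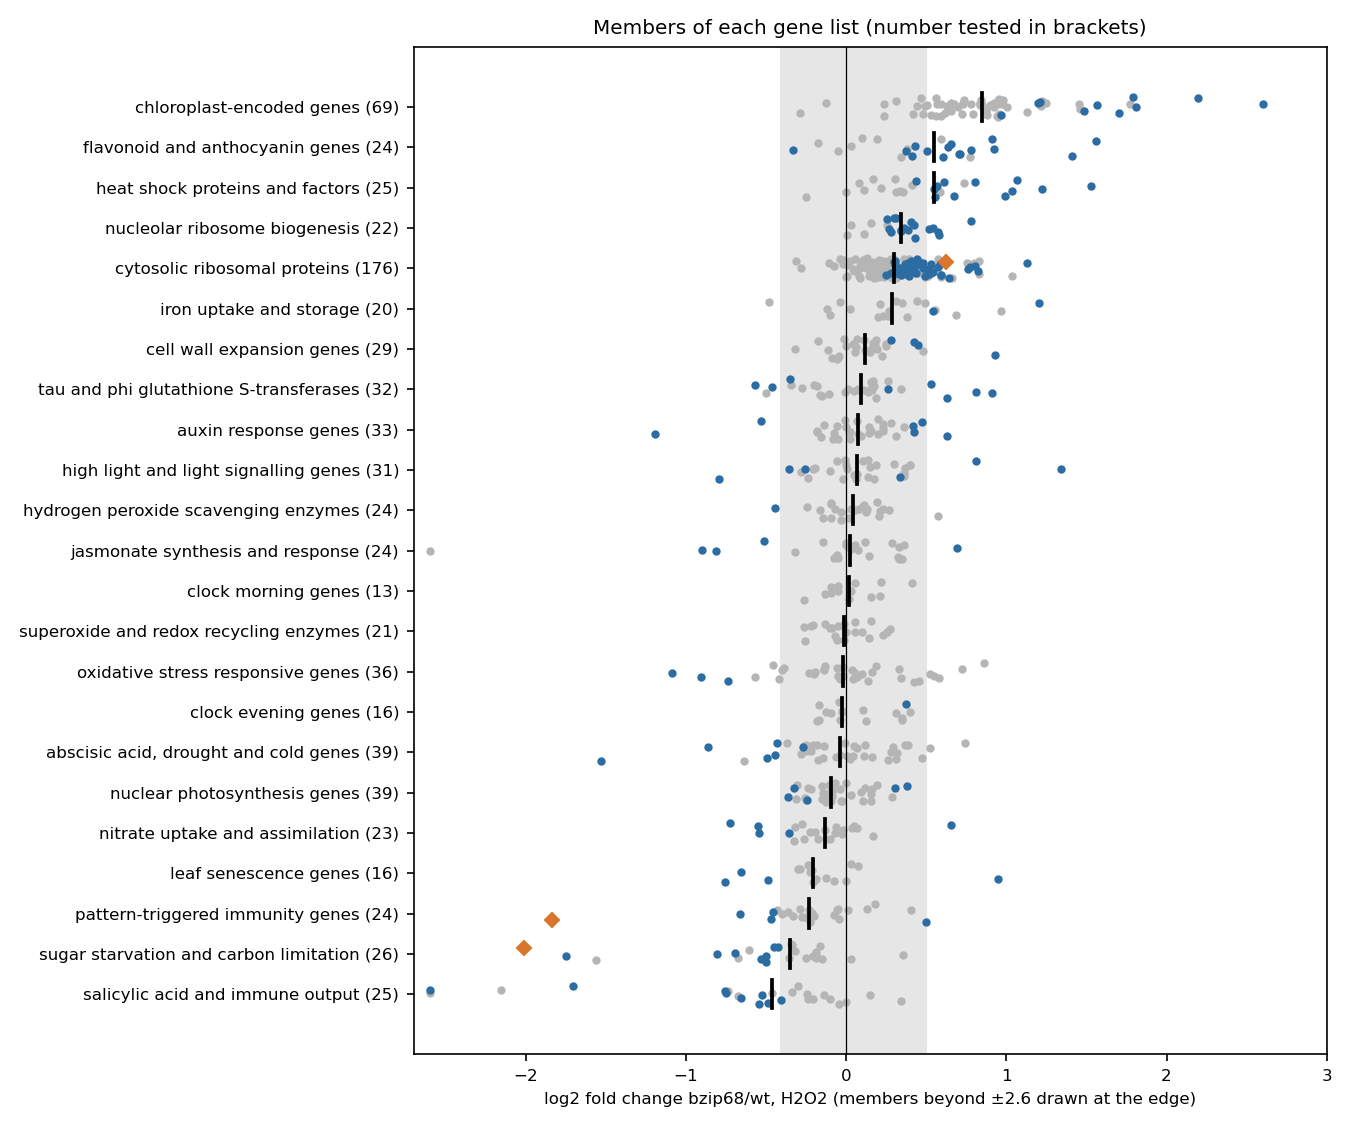
Log2 fold change of bzip68 over wt after H2O2 (horizontal) for every tested member of 23 gene lists, with the median as a black bar, members with an unadjusted p under 0.05 in blue, those passing the adjusted test as orange diamonds and the range from the 5th to the 95th percentile of all genes shaded. Ribosomal, heat shock and flavonoid members lie mostly right of 0 and sugar starvation and salicylic acid members mostly left; the chloroplast-encoded genes at the top move with 1 library.

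Flavonoid and anthocyanin genes, which make light-screening pigments, were positive in 21 of 24, with a median of 0.55. DESeq2 called 1, limma voom 0 and edgeR 0, while 14 higher and 1 lower had an unadjusted p under 0.05 (4.82% and 4.42% of all genes). UF3GT, which adds a sugar to anthocyanins, was at 0.689, 1.41 and 1.62 CPM in wt and at 2.4, 4.35 and 3.21 CPM in bzip68, at 1.41 ± 0.33 log2 (edgeR adjusted p = 0.186). 4CL3, a coenzyme A ligase feeding the flavonoid branch, was at 14.3, 9.87 and 11.7 CPM in wt and at 21.2, 18.6 and 21.7 CPM in bzip68, at 0.78 ± 0.19 log2 (edgeR adjusted p = 0.186). GSTF12, the glutathione S-transferase that carries anthocyanins to the vacuole, was at 0.91 ± 0.22 log2 (edgeR adjusted p = 0.191). In all of these the groups did not overlap. MYBL2, a repressor of the pathway, was the 1 lower member at an unadjusted p under 0.05, at -0.33 log2. The median was 0.07 in mock plants, and from mock to H2O2 it was -0.81 in wt and -0.47 in bzip68.

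Genes listed for sugar starvation and low carbon, not all of them known to be induced by it, mostly had negative log2 fold changes in bzip68 after H2O2. Of 26 tested, 24 were negative, with a median of -0.35. SEN1 was the 1 that passed (3 by DESeq2, 1 by limma voom), 9 had an unadjusted p under 0.05 and were lower (4.42% of all genes), and in 14 all bzip68 libraries lay below all wt libraries, against 8.18% of all genes. BGAL4, a beta-galactosidase, was at 68.0, 59.7 and 64.0 CPM in wt and at 35.7, 45.3 and 28.4 CPM in bzip68, without overlap, at -0.81 ± 0.17 log2 (edgeR adjusted p = 0.145). In mock plants it was at 0.48 log2 (edgeR adjusted p = 0.34), and the difference of the genotype effects was -1.29 ± 0.25 (unadjusted p = 8.6e-05, edgeR adjusted p = 0.522, DESeq2 adjusted p = 0.0055). BGAL4 rose by 1.02 log2 from mock to H2O2 in wt (edgeR adjusted p = 0.00112), beside -0.27 in bzip68 (edgeR adjusted p = 0.449). ASN1, the dark-inducible asparagine synthetase, was at 23.52, 26.4 and 29.6 CPM in wt and at 5.35, 12.4 and 5.88 CPM in bzip68, at -1.75 ± 0.40 log2 (edgeR adjusted p = 0.191). For the whole list the mock median was 0.03, and from mock to H2O2 the median was 0.63 in wt and 0.23 in bzip68.

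Immune genes mostly had negative log2 fold changes in bzip68 under both sprays. Salicylic acid and immune output genes were negative in 22 of 25 after H2O2 (median -0.47) and in 25 of 25 after mock (median -0.64). After H2O2 edgeR called 0, DESeq2 1 and limma voom 1, and 9 had an unadjusted p under 0.05, all lower (4.42% of all genes). CBP60G, a transcription factor that drives salicylic acid synthesis, was at 16.4, 14.4 and 18.3 CPM in wt and at 8.95, 7.94 and 12.2 CPM in bzip68, at -0.75 ± 0.17 log2 (edgeR adjusted p = 0.168, and 0.0382 by DESeq2). PBS3, which conjugates isochorismate on the way to salicylic acid, was at 4.72, 2.07 and 5.68 CPM in wt and at 0.982, 1.74 and 1.07 CPM in bzip68, at -1.70 ± 0.44 log2 (edgeR adjusted p = 0.234). In both genes the groups did not overlap. PR1, the classic marker of this pathway, had 17, 0 and 157 counts in the wt libraries and 0 in each bzip68 library, so its level in wt came mostly from replicate 3. Genes of pattern-triggered immunity were negative in 19 of 24 (median -0.23 after H2O2 and -0.48 after mock), with FRK1 the 1 that passed. The H2O2 median was -0.11 without bzip68 replicate 1 and -0.38 without bzip68 replicate 3.

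**Figure D4:**
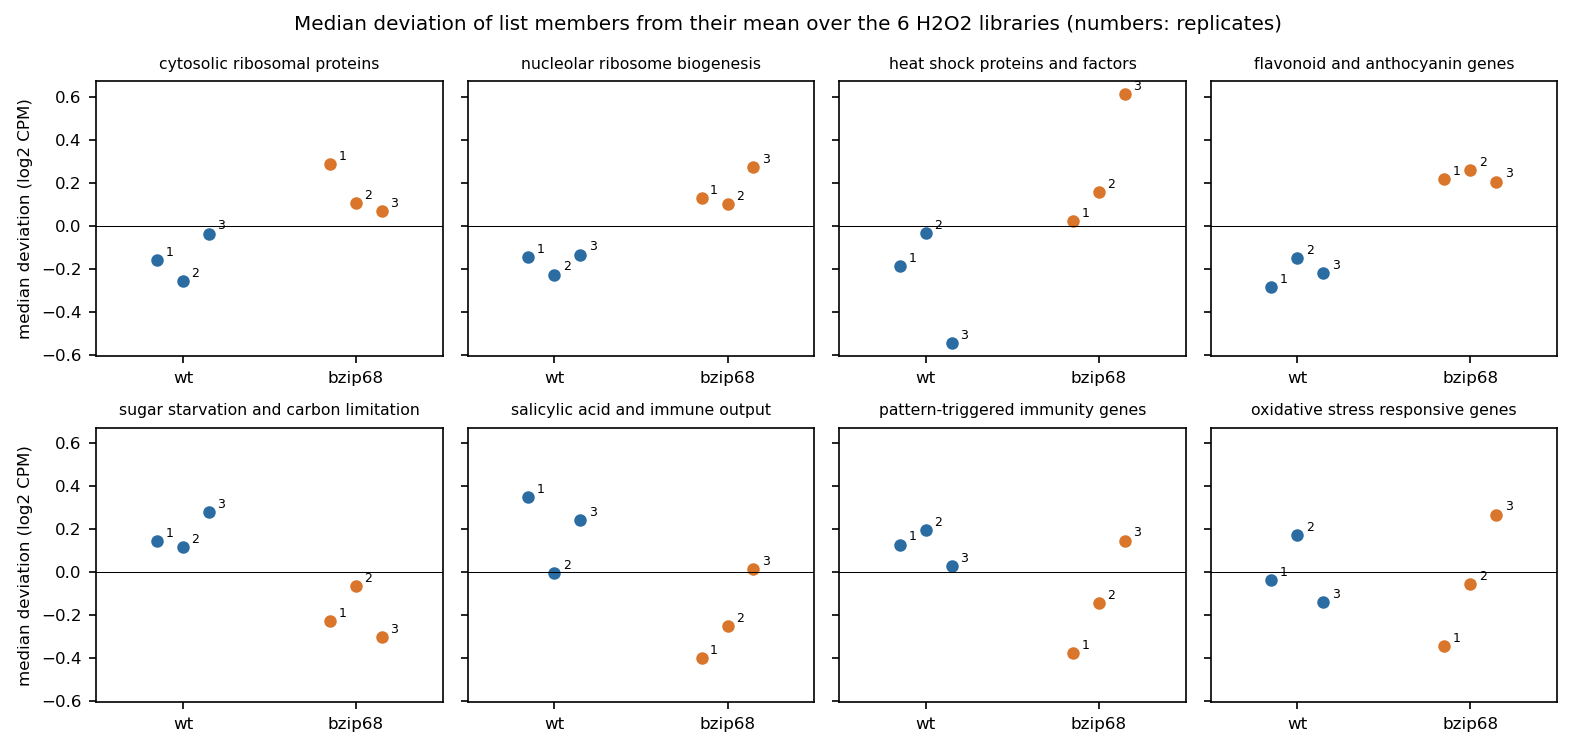
Median deviation of the members of 8 gene lists from their own mean over the 6 H2O2 libraries, in log2 CPM (vertical), for each wt (blue) and bzip68 (orange) library, numbered by replicate. The ribosomal, nucleolar, heat shock, flavonoid and sugar starvation medians do not overlap between genotypes, while those of the salicylic acid, pattern-triggered immunity and oxidative stress lists do.

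Seen library by library, 5 of these lists separated the genotypes and the immune lists did not. The median deviation of flavonoid genes was -0.29, -0.15 and -0.22 log2 in wt and 0.22, 0.26 and 0.21 in bzip68, the most even of the lists drawn. For ribosomal proteins it was -0.16, -0.26 and -0.04 in wt and 0.29, 0.11 and 0.07 in bzip68. Heat shock genes ran from -0.55 in wt replicate 3 to 0.61 in bzip68 replicate 3, with wt replicate 2 at -0.03 and bzip68 replicate 1 at 0.02 close to each other. For salicylic acid genes it was 0.35, -0.002 and 0.24 in wt and -0.40, -0.25 and 0.02 in bzip68, where wt replicate 2 lay below bzip68 replicate 3. Without wt replicate 2, heat shock genes were positive in 24 of 26 (median 0.59), flavonoid genes in 20 of 24 (median 0.61), sugar starvation genes negative in 24 of 26 (median -0.43) and salicylic acid genes in 23 of 25 (median -0.50).

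Genes that answer to or remove reactive oxygen species had medians near that of all genes after H2O2. In that genotype comparison 0 passed with any of the 3 tools, edgeR, DESeq2 and limma voom. Oxidative stress responsive genes were negative in 19 of 36 after H2O2, with a median of -0.02, and in mock plants 30 of 36 were negative with a median of -0.75. From mock to H2O2 the median was 0.22 log2 in wt and 0.69 in bzip68. The difference between the genotype effects had an unadjusted edgeR p under 0.05 in 11 of 36 (6.47% of all genes), and 0 passed by edgeR. DESeq2 called that difference for HRE2 (3.62 log2), UPOX (2.45), AOX1A (1.77) and WRKY25 (1.76). After H2O2 3 were lower and 0 higher at an unadjusted p under 0.05, a share of 36 genes close to the 9.23% of all genes. The median of the genotype difference after H2O2 was -0.16 without bzip68 replicate 3 and 0.12 without wt replicate 2. The 3 with the smallest p were transcription factors: ERF6 at -0.74 ± 0.18 log2 (edgeR adjusted p = 0.191), ERF105 at -1.09 and ZAT10 at -0.91. ERF6 was at 33.6, 44.6 and 36.4 CPM in wt and at 20.0, 22.1 and 26.6 CPM in bzip68, without overlap. Among 24 enzymes that scavenge H2O2 (median 0.04), the catalase CAT1 alone had an unadjusted p under 0.05, at -0.44 ± 0.16 log2 (edgeR adjusted p = 0.43). Enzymes of superoxide removal and redox recycling had a median of -0.02 over 21 genes, with 0 at an unadjusted p under 0.05. Tau and phi glutathione S-transferases had a median of 0.09 over 32 genes. Of these 32, 5 were higher and 3 lower at an unadjusted p under 0.05 (4.82% and 4.42% of all genes).

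In the remaining lists 0 genes passed by edgeR. DESeq2 called 1 gene in each of the high light, abscisic acid and cell wall lists (0.385% of all genes). The cell wall gene was higher and the others lower, and limma voom called 1 higher cell wall gene. In the abscisic acid list 6 of 39 were lower and 0 higher at an unadjusted edgeR p under 0.05 (4.42% and 4.82% of all genes). Leaf senescence genes were negative in 13 of 16 (median -0.21) and genes of nitrate uptake and assimilation in 18 of 23 (median -0.13). In 8 of the 23 nitrate genes all bzip68 libraries lay below all wt libraries, and in 1 above (8.18% and 8.49% of all genes). Their summed level was 5608 to 5917 CPM in wt and 4500 to 5111 CPM in bzip68. Iron genes were positive in 16 of 20 (median 0.29), led by the root iron transporter IRT1 at 1.203 ± 0.38 log2 (edgeR adjusted p = 0.382). The medians of jasmonate (24 genes, 0.02), high light and light signalling (31, 0.07), abscisic acid with drought and cold (39, -0.04), nuclear photosynthesis (39, -0.09), morning clock (13, 0.02), evening clock (16, -0.03), cell wall expansion (29, 0.12) and auxin response genes (33, 0.07) were close to that of all genes, and ran from -0.17 to 0.19 over the alternatives.

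DESeq2 and limma voom placed more genes past the threshold, and both called all 13. DESeq2 called 70 genes (0.385%) and limma voom with library weights 26 (0.143%), with 13 further genes called by both. The receptor-like protein RLP19 was just outside the edgeR threshold, at 23.3, 24.5 and 25.1 CPM in wt and at 10.6, 13.2 and 15.3 CPM in bzip68, a log2 fold change of -0.90 ± 0.16 (edgeR adjusted p = 0.0523). XTH17, which remodels xyloglucan in the cell wall, was at 19.96 ± 2.22 CPM (SD, n = 3) in wt and 38.0 ± 6.16 CPM in bzip68, at 0.93 ± 0.18 log2 (edgeR adjusted p = 0.0949). EDR2, a negative regulator of defence and cell death, was at 29.7, 33.4 and 29.5 CPM in wt and at 18.5, 20.8 and 21.1 CPM in bzip68, at -0.62 ± 0.12 log2 (edgeR adjusted p = 0.0885). In RLP19, XTH17 and EDR2 the genotypes did not overlap. XTH17 and EDR2 were level between genotypes in mock plants, at 0.04 and 0.05 log2, and the differences of their genotype effects had unadjusted p of 0.00255 and 0.00109 (edgeR adjusted p = 0.622 and 0.588). ARP9, a nuclear actin-related protein, was at 0.66 ± 0.13 log2 (edgeR adjusted p = 0.129) and was called in mock plants, at 0.87 (edgeR adjusted p = 0.017). Among the largest differences without a call, in genes without overlap whose higher group averaged at least 5 CPM, was that of the aspartyl protease AT5G10760. It was at 13.4, 4.89 and 29.6 CPM in wt and at 3.6, 4.13 and 3.63 CPM in bzip68, at -2.07 ± 0.65 log2 (edgeR adjusted p = 0.39). Its level varied among the wt libraries more than among the mutant libraries.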

How the data were processed

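The authors deposited 1 RNA-seq table with whole-number counts for 18430 genes. Per the submitters' processing notes, the build was TAIR10 and the RNA tools were RSEM 2.1.30 and TopHat2 2.1.0, with ChIPseeker and MACS 1.4.3 for ChIP. Rounding of the counts is not stated. Another 6 per-sample columns matched no label and were not used, so the low light groups are not analysed here. Per the file headers, peak scores are scaled -log10 p-values, used here only to describe peaks.

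The 12 mock and H2O2 libraries in 4 groups (8 residual degrees of freedom) were fitted together with edgeR 4.0.16 (quasi-likelihood F-test, robust, Benjamini-Hochberg adjustment over all genes) after TMM scaling and a filterByExpr filter that kept 18205 genes. DESeq2 1.42.0 and limma 3.58.1 (voom with library weights) were alternatives, run with R 4.3.3. CPM use TMM-scaled library sizes, and standard errors derive from the F statistic.

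Named genes were the 13 called, the 3 per list with the smallest p, the 6 largest changes in each direction with p under 0.05, at least 5 CPM and no overlap, and 12 of those called by both other tools. MYBL2, PR1, DMC1, GL2, HSP23.5 and AT3G05080 were named after their values were seen. The 26 gene lists and 7 marker lists, like the genes described, were chosen with earlier results of these data known. Promoters were cut from the TAIR10.1 genome, on which 5343 of 5424 genes assigned a peak were found, all on the same chromosome. Replicates differed by more than sampling noise, with chi-square values of 7.60 to 16.2 for each degree of freedom.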

Additional observations from a re-analysis of the deposited data

How the results depend on the processing

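The count of 13 genes in H2O2 plants was 70 with DESeq2, 26 with limma voom, 31 with only the 6 H2O2 libraries in the fit, 27 without both libraries that stood apart (H2O2 wt replicate 2 and mock bzip68 replicate 2), and 8 to 16 with 1 library left out (8 without wt replicate 1 or 3). The size factors, the filters and leaving out organelle genes gave 13 or 14. In all 6 fits without 1 library, NDL2, MRD1, HEI10, ENT1, AT3G05060, BZIP68, SADHU3-2 and AT1G70340 kept their call. For the difference between H2O2 and mock plants 0 genes became 24 with DESeq2 and 0 to 1 with 1 H2O2 library left out. The 39 genes of mock plants became 216 with DESeq2, 843 with limma voom, 73 without both libraries that stood apart and 17 to 40 with 1 H2O2 library left out. Mock libraries were not left out singly, so these ranges do not show how far the counts rest on any single mock library. Of the 95 named genes, 32 had a peak, against 8 with the shorter peak list and 28 by overlap with the 1000 bases before the start. CACGTG occurred in 14 of 91 named promoters, or 11 in the 250 bases before the start only. NDL1 turned to 0.015 log2 without both libraries that stood apart and ran from -0.185 to 0.015 with 1 library left out. NDL3 turned to -0.015 with limma voom and ran from -0.096 to 0.222 with 1 library left out. For these the cause was not tested. Over the named genes, 1431 of 1516 alternative values kept their direction and side of the threshold, 50 newly passed, 29 no longer passed and 6 turned. The replicate block gave 17 genes, 11 of them shared, without RPL23AB and AT3G13230. The labels do not say that a number pairs the samples. The deviations of same-numbered libraries had correlations of 0.20, 0.16 and -0.25, and those of pairs with different numbers ran from -0.35 to 0.16. With 3 libraries a group, low counts such as those of BZIP68 in the mutant limit the precision of single folds.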
